A study of Homo sapiens with 37 samples.

Results

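The mitochondrial chromosome carries 37 of the 57773 genes counted in these human libraries. They were taken as every gene whose symbol starts with MT-, and they comprise 13 genes for subunits of the respiratory chain, 2 for ribosomal RNAs and 22 for transfer RNAs. The libraries hold ribosome-depleted total RNA of cells driven towards senescence, a lasting stop of division, and of their controls. Aortic endothelial cells (HAEC, population doubling level 4 to 6) received 4 Gy of ionising radiation (3 libraries) or none (2 libraries). Umbilical vein endothelial cells (HUVEC, level 3 to 5) received 4 Gy or none, with 3 libraries each. Every group of fetal lung fibroblasts had 2 libraries. IMR-90 fibroblasts were given 10 Gy at level 15 or were grown to level 52, and both groups were set against the same proliferating cells at level 15. WI-38 fibroblasts at level 25 received doxorubicin, a DNA-damaging drug, at 2 µg/mL for 24 h or none, in an initial experiment, called the first below, and in a repeat. Other WI-38 cells received a lentivirus with mutant HRAS, or one with an empty vector, each at a multiplicity of infection of 10 and with 1 µg/mL puromycin. The last WI-38 groups were given 10 Gy or none, or were replicatively exhausted at level 53 to 55 and set against proliferating cells at level 25. Each strain comes from a single fetus, so the replicates say nothing of differences between people.

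Mitochondrial DNA is transcribed from both strands into long precursors that run through many genes. Transfer RNAs sit between the messenger and ribosomal genes like punctuation, and their excision by RNase P and ELAC2 frees the RNAs on either side. The proteins made from these genes are core subunits of complexes I, III and IV and of ATP synthase. The nucleus supplies every protein factor that copies, transcribes, matures and translates these genes. Of the 37 genes, 28 are read from the heavy strand and 9, namely MT-ND6 and 8 transfer RNAs, from the light strand.

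The results turn first on 4 light-strand transfer RNA genes that lie side by side next to the origin of light-strand replication. They are shown because they took most of the transfer RNA counts in 25 of the libraries and moved the most uniformly of all members. Sequences are those of the GENCODE release 29 transcripts and positions those of its annotation of GRCh38, chromosome M, which is not the build of the deposited counts; all 4 lie on the minus strand and the anticodon is in capitals.
MT-TA (alanine, chrM:5587-5655): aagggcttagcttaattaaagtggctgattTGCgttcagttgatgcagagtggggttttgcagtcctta
MT-TN (asparagine, chrM:5657-5729): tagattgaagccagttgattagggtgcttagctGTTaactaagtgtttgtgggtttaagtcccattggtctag
MT-TC (cysteine, chrM:5761-5826): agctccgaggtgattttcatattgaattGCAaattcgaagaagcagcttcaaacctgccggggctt
MT-TY (tyrosine, chrM:5826-5891): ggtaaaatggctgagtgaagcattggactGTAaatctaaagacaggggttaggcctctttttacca
MT-TC and MT-TY share 1 base. The fifth transfer RNA of the cluster, MT-TW (tryptophan), is read from the other strand. Whether strand was used in counting is not given in the sources used here, so reads of these genes and of a precursor of the opposite strand cannot be told apart. The genes are 66 to 73 bases long, shorter than the 150-base reads that the labels state for those 25 libraries.

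Some messenger genes share bases too. The last bases of MT-ATP8 (chrM:8497-8572, plus strand) are shown because 46 of them, in capitals, are also the start of MT-ATP6, so the counts of this pair are uncertain where the counting could split them.
End of MT-ATP8: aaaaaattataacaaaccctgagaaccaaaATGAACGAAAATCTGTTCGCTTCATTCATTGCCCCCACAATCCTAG
MT-ND4L and MT-ND4 share 7 bases, MT-TI and MT-TQ share 3 on opposite strands, and MT-ATP6 and MT-CO3 share 1. Nuclear copies of mitochondrial DNA are a second source of uncertainty. MTCO1P12 is 98.7% identical to MT-CO1, and its count was 9.82% to 14.4% of that of MT-CO1 in the same 25 libraries.

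Markers of the labelled cell type were present. All 12 endothelial markers reached 1 CPM in HAEC and HUVEC, and all 10 fibroblast markers did so in every IMR-90 and WI-38 group. That mark alone does not part the types. In endothelial groups 6 or 7 fibroblast markers also reached it, and in fibroblast groups 1 to 6 endothelial markers did. In HAEC and HUVEC the fibroblast markers summed to 175 to 306 CPM and the endothelial markers to 1844 to 2282 CPM. The libraries fall into a pair of kinds that were never compared with each other. The 25 libraries of the first kind, from both endothelial cells, IMR-90, first doxorubicin and HRAS experiments, held 102293388 to 202974994 counts, with 50.7% to 66.9% in protein-coding genes and 4.92% to 7.48% in small RNAs such as 7SL. The 12 of the second kind, from the repeat, irradiated and exhausted WI-38 experiments, held 205854972 to 370996204 counts, with 82.0% to 91.1% and 0.0207% to 0.138%. Levels below are CPM (each count relative to the TMM-scaled library total within a set of libraries), and changes are edgeR log2 fold changes ± standard error with q, the p adjusted by Benjamini-Hochberg over all genes of the set. A gene was called higher or lower at q below 0.05. Nothing in the labels states that replicates came from separate cultures; p-values therefore cover the spread among these libraries alone, and that spread may be technical. In bulk RNA, fewer cells of a type and less RNA per cell cannot be told apart, and neither can fewer mitochondrial genomes and less RNA from each.

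The mitochondrial share of all counts was above its control in every comparison by the mean, but the groups overlapped in 4 of the 9. In irradiated HAEC it was 0.162%, 0.162% and 0.147% against 0.152% and 0.155% in unirradiated cells. In irradiated HUVEC it was 0.123%, 0.111% and 0.116% against 0.119%, 0.112% and 0.100%. Irradiated and unirradiated libraries overlapped in both, with ratios of the means of 1.02 and 1.06. In irradiated IMR-90 it was 0.199% and 0.165%, and in late-passage IMR-90 0.177% and 0.234%, against 0.175% and 0.159% at level 15; irradiated cells overlapped with level 15 and late-passage cells did not.

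In the first WI-38 doxorubicin experiment the share was 0.245% and 0.341% in treated against 0.186% and 0.123% in control cells, a ratio of 1.89 with no overlap. With mutant HRAS it was 0.315% and 0.607% against 0.324% and 0.305% with the empty vector. The higher HRAS mean thus rested on 1 library: the ratio was 1.47, and 1.00 without HRAS replicate 2, which held 0.366% in ribosomal RNA genes where replicate 1 held 0.109%. In the repeat, the shares were 5.78% and 5.61% with doxorubicin against 3.58% and 5.11% without. Irradiated WI-38 held 9.71% and 14% against 6.31% and 6.99%, and exhausted WI-38 8.71% and 5.78% against 3.21% and 4.41%. These last 3 pairs of groups did not overlap, with ratios of 1.31, 1.79 and 1.90.

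**Figure D1:**
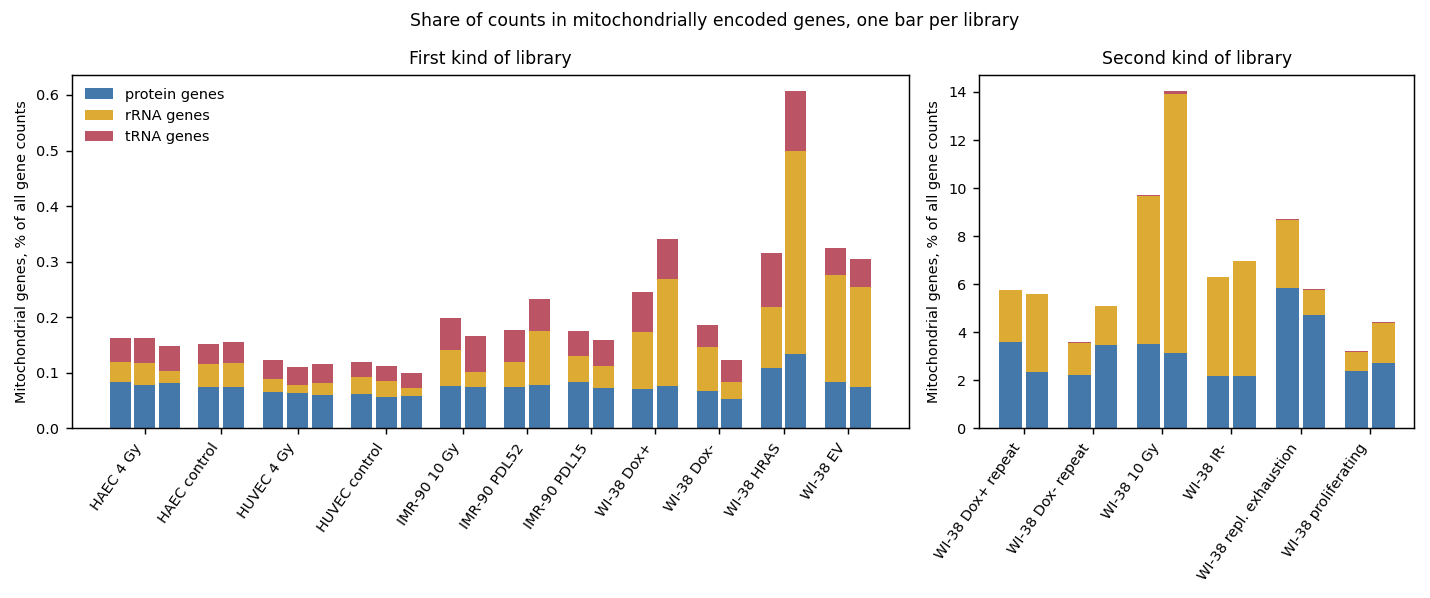
Share of all gene counts in mitochondrial genes (percent, y axis), 1 bar per library stacked by protein, rRNA and tRNA genes, with each treated group left of its control and a separate axis for each kind of library. HRAS replicate 2 reaches 0.607% where replicate 1 reaches 0.315%, most of the gap being rRNA genes (0.366% against 0.109%).

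The share split differently by class. Transfer RNA genes took a larger share in treated than in control libraries in all 9 comparisons, with no overlap in any: the ratios of the means were 1.18 in HAEC, 1.27 in HUVEC, 1.33 and 1.25 in irradiated and late-passage IMR-90, 1.79 with doxorubicin and 2.08 with HRAS in the first WI-38 set, and 1.32, 3.16 and 2.73 with repeat doxorubicin, radiation and exhaustion. The ratio of 3.16 was 1.59 without irradiated replicate 2. Without the 4 light-strand genes described above, a split made after seeing the data, the other transfer RNA genes took 0.00478% of counts in irradiated against 0.00564% in unirradiated HAEC, lower without overlap, and 0.00445% against 0.00462% in HUVEC, where the groups overlapped, as they did in the doxorubicin repeat (ratio 1.04). In the other 6 comparisons the ratios for those genes were 1.25 to 2.86, without overlap, and the highest, in irradiated WI-38, was 1.32 without irradiated replicate 2. Protein genes gave ratios of 1.08, 1.07, 0.971, 0.977, 1.21, 1.54, 1.05, 1.53 and 2.07 in the same order, and HUVEC, both IMR-90 groups and the repeat overlapped with their controls. Ribosomal RNA genes varied between replicates in several groups. Irradiated HAEC held 0.0365%, 0.0400% and 0.0204% in them against 0.0411% and 0.0424%.

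Per kilobase of gene, the order of the members differed between the kinds of library. In unirradiated HAEC the highest levels per kilobase were those of MT-TC (1477 ± 46.0 CPM per kb, SD, n = 2), MT-TN (1324 ± 25.3), MT-TY (970 ± 30.5) and MT-TA (929 ± 26.9), and MT-TY and MT-TA did not differ beyond their spread. MT-TP (255 ± 29.4) and MT-CO1 (213 ± 6.53), the highest messenger, followed well below, and MT-TF was the lowest at 0.0927 ± 0.131. The same 4 transfer RNA genes led in the other control groups of this kind, and together they took 12.6% to 33.7% of the mitochondrial counts and 81.9% to 91.1% of the transfer RNA counts of the 25 libraries. In proliferating WI-38 of the second kind, MT-CO1 led with 11604 ± 773 CPM per kb (n = 2), then MT-RNR2 (6757 ± 3433), MT-CO2 (3048 ± 313) and MT-RNR1 (2763 ± 1022), of which the last 3 overlapped in spread. There the 4 light-strand genes took 0.0314% to 0.138% of the mitochondrial counts. Within a library of the first kind the 4 kept near-fixed proportions: MT-TN over MT-TC was 0.980 to 1.04 and MT-TN over MT-TA 1.48 to 1.58. In the second kind the ratios were 0.770 to 1.00 and 1.83 to 2.93.

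More members rose in IMR-90 cells and with HRAS than in irradiated endothelium. MT-TF had too few counts to be tested in the first kind of library, so 36 of the 37 were tested there. In irradiated HAEC, 5 members rose and 10 fell, where 19.7% of all genes tested were called higher and 19.9% lower; the median member changed by -0.16 on the log2 scale, against 0.01 over all genes. In irradiated HUVEC, 6 rose and 3 fell (18.6% and 20.1% of all genes; medians -0.04 and 0.01). The members called were 13.9% higher and 27.8% lower in HAEC, and 16.7% higher and 8.33% lower in HUVEC. In this fit lower calls in HAEC were thus above the share among all genes and the other 3 counts below it. That excess did not hold in every setting. Of the HAEC calls, DESeq2's Wald test lost 6 and a fit of all libraries of the first kind lost 10.

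In IMR-90, 28 of the 36 rose after irradiation (26.6% and 22.5% of all genes called higher and lower) and 29 at late passage (26.6% and 23.5%), with member medians of 0.50 and 0.46 against -0.02 and -0.04 over all genes. None was called lower in either by edgeR or by DESeq2's Wald test, and 0 had an unadjusted p below 0.05 in that direction in edgeR. All calls rest on TMM-scaled counts, with scaling factors of 0.922 to 1.14 in IMR-90 and 0.890 to 1.15 in the first WI-38 set. In IMR-90, 12 of the 13 protein genes were called higher after irradiation and 11 at late passage. Their share of unscaled counts overlapped with level 15 in both, with ratios of 0.971 and 0.977. With HRAS, where all 13 were called higher, the ratio of that share was 1.54, without overlap. Calls without scaling were not made. With doxorubicin in the first WI-38 experiment 12 rose (13.6% higher and 13.2% lower among all genes; medians 0.37 and 0.01), and with HRAS 31 rose (27.1% and 18.9%; medians 1.01 and 0.07). In the second kind of library all 37 were tested. There, 1 rose in the doxorubicin repeat (3.18% and 2.26%; medians -0.07 and 0.04), 21 in irradiated WI-38 (8.89% and 6.09%; medians 1.30 and -0.06) and 18 in exhausted WI-38 (5.80% and 6.82%; medians 1.27 and 0.01).

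Some of these counts rest on single libraries or on how the spread was estimated. The 12 doxorubicin calls became 6 without control replicate 2, 7 without doxorubicin replicate 2 and 20 in a fit of the compared groups alone. The 21 calls of irradiated WI-38 became 8 without irradiated replicate 2, 7 and 9 without either control, and 31 without irradiated replicate 1. The 10 lower calls in HAEC became 3 without irradiated replicate 1 and 4 without control replicate 1. The 3 lower calls in HUVEC became 5 without control replicate 3, irradiated replicate 1 or irradiated replicate 3, and 1 without irradiated replicate 2. The 18 calls in exhausted WI-38 became 11 without control replicate 1. The 1 call of the doxorubicin repeat became 2 without control replicate 2.

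**Figure D2:**
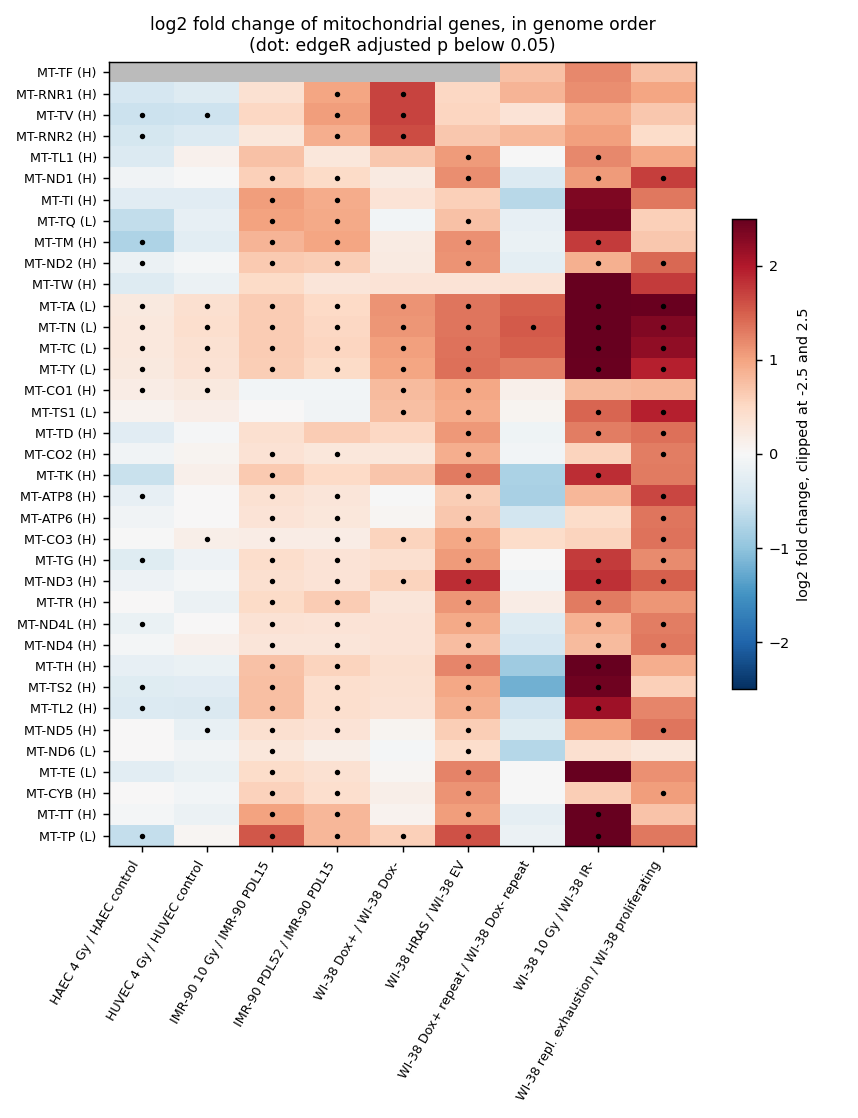
Log2 fold change (colour, treated over control, clipped at the ends of the scale) of each mitochondrial gene, in genome order (rows, H heavy and L light strand), in the 9 comparisons (columns); a dot marks q below 0.05 in edgeR and grey an untested gene. MT-TA, MT-TN, MT-TC and MT-TY are positive in all 9 columns, and the HRAS column holds 31 dots.

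The 4 light-strand transfer RNAs of the cluster, which bring alanine, asparagine, cysteine and tyrosine to the mitochondrial ribosome, were higher in treated than in control cells in every comparison, with no overlap of groups in any. They were set apart as a group after their values were seen, so the group has no test of its own. Because their counts may hold the same reads, the agreement of the 4 may not be that of separate measurements. Groups without overlap were common: of all 37 members, 10 had them in HUVEC and 34 in late-passage IMR-90 and with HRAS. The share of all genes without overlap was not computed. MT-TN was called higher in 9 of 9 comparisons, and MT-TA, MT-TC and MT-TY in 8, missing only the doxorubicin repeat. No other member was called higher in more than 6. The shares of all genes called higher in each comparison are those given above.

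In endothelium MT-TN, the asparagine carrier, was at 112, 119 and 118 CPM in irradiated against 95.4 and 98.0 CPM in unirradiated HAEC (log2 fold change 0.27 ± 0.04, q = 3.14e-06). In HUVEC MT-TN was at 90.5, 88.2 and 88.8 CPM after irradiation and at 65.0, 66.6 and 68.3 CPM without (0.42 ± 0.04, q = 6.88e-10). These were small changes with a narrow spread, and MT-TA, MT-TC and MT-TY rose by 0.25 to 0.26 in HAEC and 0.36 to 0.41 in HUVEC. In IMR-90, MT-TN was at 164 and 184 CPM after irradiation and 158 and 161 CPM at late passage, against 106 and 118 CPM at level 15 (0.64 ± 0.07, q = 2.89e-06, and 0.52 ± 0.07, q = 2.2e-05).

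In the first WI-38 set MT-TN was at 211 and 209 CPM with doxorubicin against 91.1 and 105 CPM without (1.10 ± 0.14, q = 8.99e-05). With HRAS it was at 291 and 312 CPM against 107 and 132 CPM with the empty vector (1.34 ± 0.14, q = 9.2e-06). Treated and control libraries stood far apart in both, and the other 3 genes rose by 0.99 to 1.12 with doxorubicin and 1.34 to 1.37 with HRAS. In none of these 6 comparisons did leaving out any single library end a call of the 4 genes. Other shares moved too: small RNAs took 7.12% of counts on average with doxorubicin against 5.98% without. They took 6.88% in irradiated and 5.60% in late-passage IMR-90 against 6.27% at level 15. The part of small RNAs in these results was not tested.

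In the second kind of library the levels were far lower and the spread wider. MT-TN was at 17.1 and 14.8 CPM with repeat doxorubicin against 4.77 and 6.19 CPM without (1.54 ± 0.39, q = 0.0347). That call was lost without control replicate 1 or without either treated library. In irradiated WI-38 MT-TN was at 24.8 and 48.9 CPM against 5.90 and 5.78 CPM (2.66 ± 0.41, q = 0.000456), and in exhausted cells at 26.3 and 9.73 CPM against 2.92 and 4.34 CPM (2.31 ± 0.41, q = 0.00153). Treated replicates differed by more than the controls did, yet none reached down to its controls. MT-TA gave 2.80 ± 0.46 and 2.46 ± 0.45 in these 2 comparisons, and MT-TY 2.47 ± 0.49 and 1.95 ± 0.48; in exhausted cells the call of MT-TY was lost without exhausted replicate 1 (q = 0.129) or control replicate 1 (q = 0.0992).

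**Figure D3:**
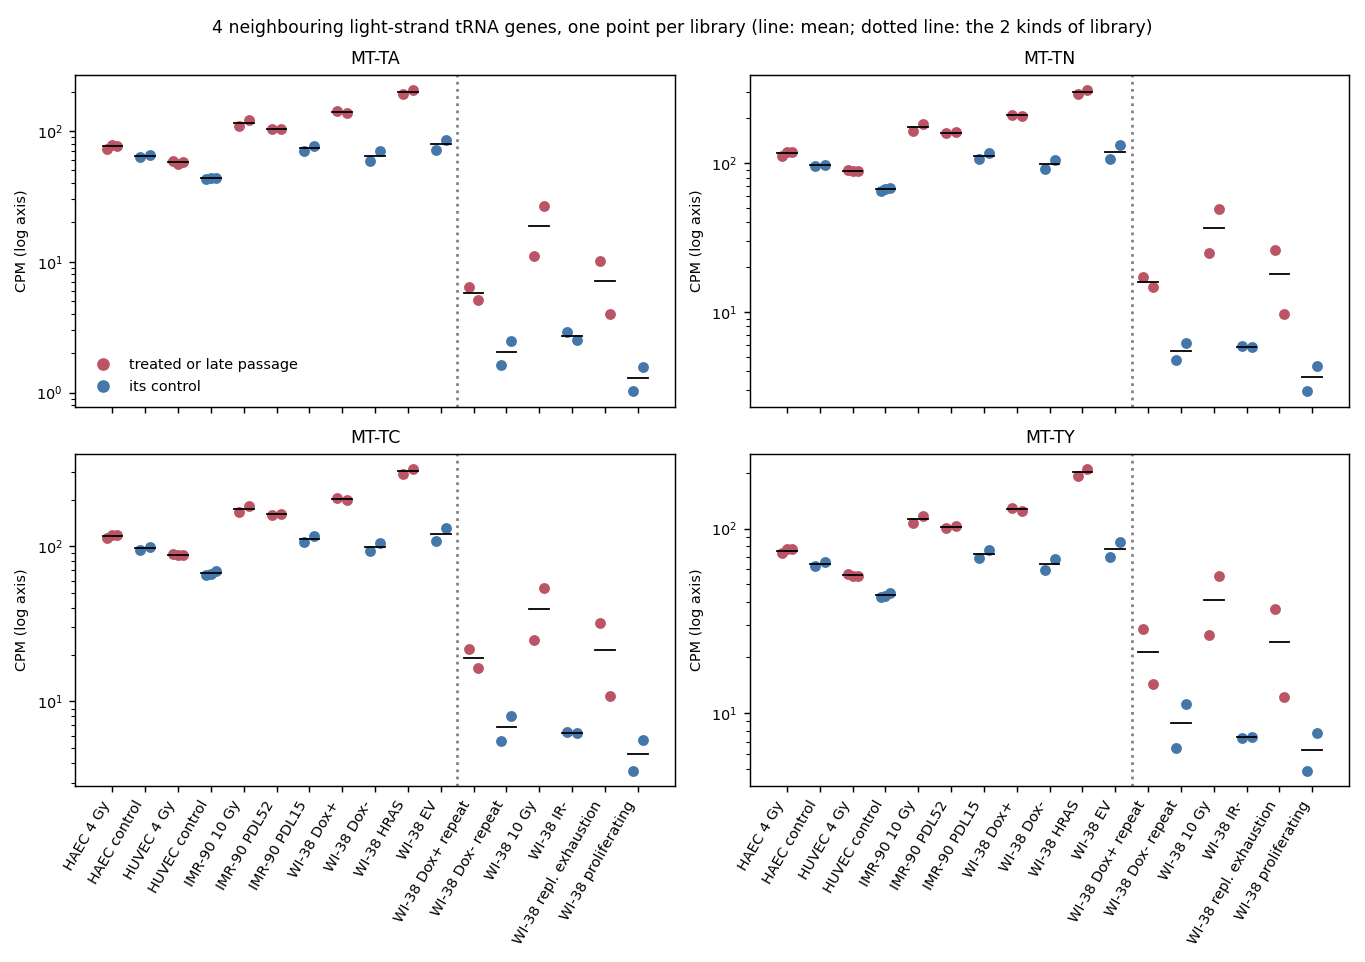
CPM (log y axis) of MT-TA, MT-TN, MT-TC and MT-TY; each point is a library, the short line is the group mean and the dotted line parts the kinds of library. Treated or late-passage points lie above all points of their control, for MT-TN at 291 and 312 CPM with HRAS against 107 and 132 CPM with the empty vector.

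The neighbours of the cluster did not follow it alike. MT-TW, the tryptophan carrier on the opposite strand, was called in no comparison and ranged from 0.719 to 2.18 CPM in the first kind of library. MT-ND2, which ends just before MT-TW, fell in HAEC (-0.15 ± 0.05, q = 0.0204), a call lost without control replicate 2 or irradiated replicate 1, and showed -0.04 ± 0.05 in HUVEC (q = 0.539). MT-CO1, the catalytic subunit of complex IV, starts just after it. It was at 384, 363 and 376 CPM in irradiated against 321 and 335 CPM in unirradiated HAEC, and at 229, 229 and 221 CPM against 194, 191 and 188 CPM in HUVEC. MT-CO1 thus rose in both (0.19 ± 0.03, q = 6.32e-05, and 0.25 ± 0.04, q = 2.99e-06), without overlap.

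The other light-strand transfer RNAs were less uniform. MT-TP, the proline carrier at the end of the coding stretch, changed in different directions. It fell in HAEC, at 10.7, 11.7 and 12.1 CPM after irradiation against 16 and 18.8 CPM (-0.59 ± 0.07, q = 9.93e-07). In IMR-90, MT-TP rose to 25 and 34.7 CPM after irradiation and to 18 and 17.7 CPM at late passage, against 10.1 and 10.2 CPM at level 15 (1.56 ± 0.12 and 0.82 ± 0.12). With HRAS it was at 50.7 and 53.1 CPM against 16.4 and 17.9 CPM (1.60 ± 0.18, q = 2.39e-05). In HUVEC the MT-TP groups overlapped (0.05 ± 0.09, q = 0.702). In irradiated WI-38 MT-TP was at 5.18 and 56.6 CPM against 4.08 and 2.31 CPM, and its call (q = 0.0102) was lost without irradiated replicate 2 (q = 0.395). MT-TE and MT-TQ, for glutamate and glutamine, rose in both IMR-90 comparisons and with HRAS and in no other. Of these calls, that of MT-TE with HRAS held without each library in turn, and the others were each lost without any of 2 to 4 single libraries.

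The same irradiated WI-38 replicate 2 carried several heavy-strand transfer RNAs. MT-TH, the histidine carrier, was at 5.79 and 90.3 CPM in irradiated against 10.9 and 5.57 CPM in control cells. Its log2 fold change was 2.54 ± 0.76 with both libraries and -0.51 without replicate 2. MT-TS2 (serine) and MT-TL2 (leucine), its neighbours, also turned, to -0.67 and -0.08. That library held 82.0% of its counts in protein-coding genes, the lowest of the 12, and the part of this in the result was not tested.

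Most heavy-strand transfer RNAs rose in IMR-90 and with HRAS, and most were not called in endothelium. Of the 13 tested in the first kind of library, 9 rose in each IMR-90 comparison (26.6% of all genes in each) and 10 rose with HRAS (27.1%), while 1 rose with doxorubicin (13.6%). The late-passage count became 4 without level 15 replicate 1 or late-passage replicate 1. In HAEC 5 fell (19.9% of all genes), which became 1 without irradiated replicate 1 or control replicate 1 and 3 without irradiated replicate 3. In HUVEC 2 fell (20.1%), which became 1 without control replicate 1 or 2, and without irradiated replicate 2 neither was called. Of 14 tested in the second kind, 10 rose in irradiated WI-38 (8.89% of all genes), but MT-TG alone was called without irradiated replicate 2 or without either control. In exhausted WI-38 MT-TD (aspartate) and MT-TG (glycine) rose (5.80%), and neither was called without control replicate 1 and only MT-TD without control replicate 2. MT-TL2 was at 2.86, 3.33 and 3.25 CPM in irradiated against 3.99 and 3.98 CPM in unirradiated HAEC, and it fell there (-0.34 ± 0.11, q = 0.0151), a call lost without control replicate 1 or irradiated replicate 1. It was at 6.51 and 5.81 CPM in irradiated IMR-90 against 3.75 and 3.57 CPM at level 15 (0.75 ± 0.12, q = 9.66e-05). MT-TT, the threonine carrier, rose by 1.01 ± 0.13 and 0.83 ± 0.13 in irradiated and late-passage IMR-90 and by 1.05 ± 0.17 with HRAS.

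Complex I takes electrons from NADH, and 7 of its subunits are mitochondrially encoded: MT-ND1, MT-ND2, MT-ND3, MT-ND4, MT-ND4L, MT-ND5 and MT-ND6. Of these 7, 7 rose with HRAS (27.1% of all genes), 7 in irradiated IMR-90 and 6 at late passage (26.6% in each), and 1 with doxorubicin in the first experiment (13.6%). In exhausted WI-38 6 rose (5.80%). In irradiated WI-38 5 rose (8.89%), which became 1, MT-ND3, without irradiated replicate 2 or control replicate 1, and 2 without control replicate 2. MT-ND5 fell in HUVEC (20.1% of all genes fell), and MT-ND2 and MT-ND4L fell in HAEC (19.9%), where neither was called without control replicate 2 or irradiated replicate 1, and MT-ND4L was lost without any of the 5 libraries. MT-ND1, part of the quinone-binding site, was at 23.6 and 25.2 CPM in irradiated and 22.7 and 22.6 CPM in late-passage IMR-90, against 16.5 and 15.8 CPM at level 15. Both groups stood clear of their control (0.60 ± 0.07, q = 3.37e-06, and 0.49 ± 0.07, q = 2.45e-05). With HRAS MT-ND1 was at 35.1 and 44.0 CPM against 18 and 17.6 CPM with the empty vector (1.15 ± 0.14, q = 3.47e-05). In HAEC it was at 16.5, 17.3 and 17.4 CPM against 18.5 and 17.5 CPM (-0.08 ± 0.05, q = 0.27), and with doxorubicin at 19.3 and 20.2 CPM against 17.4 and 16.4 CPM (0.22 ± 0.14, q = 0.265).

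MT-ND3 had the highest fold change of the protein genes with HRAS, at 25.8 and 32.3 CPM against 8.34 and 7.80 CPM (1.85 ± 0.16, q = 2.74e-06). It was at 70.6 and 101 CPM in irradiated WI-38 against 25.7 and 22.8 CPM (1.82 ± 0.24, q = 0.000134), a call that held without each library in turn. In exhausted WI-38 MT-ND3 was at 131 and 117 CPM against 39.4 and 48.9 CPM (1.49 ± 0.24, q = 0.000764). With doxorubicin it rose in the first experiment (0.55 ± 0.16, q = 0.0233), a call lost without any of 3 libraries, and was at 45.9 and 55.6 CPM against 64.2 and 42.1 CPM in the repeat, where the groups overlapped. MT-ND1 in exhausted WI-38 was at 947 and 797 CPM against 240 and 287 CPM (1.73 ± 0.24, q = 0.000263).

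MT-ND6 is the single messenger of the light strand. It was at 36.8 and 40.3 CPM in irradiated IMR-90 against 31.4 and 31.6 CPM (0.29 ± 0.06, q = 0.00128), and with HRAS at 43.6 and 54.8 CPM against 35.7 and 36.5 CPM (0.45 ± 0.14, q = 0.0173). These were its only calls, and the second was lost without 1 library. In exhausted WI-38, where 11 of the 13 protein genes rose, MT-ND6 was at 181 and 103 CPM against 82.9 and 152 CPM and overlapped.

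MT-CYB, the core of complex III, was at 73.7 and 87.1 CPM with HRAS against 38.2 and 35.5 CPM with the empty vector (1.13 ± 0.13, q = 3.02e-05). In irradiated and late-passage IMR-90 it was at 36.2 and 37.3 CPM and at 32.9 and 33.1 CPM, against 24.4 and 24.7 CPM at level 15 (0.58 ± 0.06 and 0.43 ± 0.06). Those groups did not overlap. MT-CYB also rose in exhausted WI-38 (1.05 ± 0.26, q = 0.0158), a call lost without either of 2 libraries, and its groups overlapped in HAEC, in HUVEC and in both doxorubicin experiments.

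Complex IV passes electrons to oxygen, and its 3 core subunits parted ways in IMR-90. MT-CO1 was at 289 and 273 CPM after irradiation and 267 and 294 CPM at late passage against 313 and 274 CPM at level 15, which overlapped (-0.06 ± 0.07 in each, q = 0.523 and 0.493). MT-CO2, the copper subunit that accepts electrons from cytochrome c, was at 64.5 and 64.0 CPM and at 59.5 and 61.5 CPM against 51.5 and 48.6 CPM (0.36 ± 0.06 and 0.27 ± 0.06). MT-CO3 rose by 0.19 ± 0.06 in each, and its call after irradiation was lost without level 15 replicate 1 or irradiated replicate 1. In WI-38, MT-CO1 was at 331 and 342 CPM with doxorubicin against 206 and 183 CPM (0.79 ± 0.13, q = 0.000961), and at 486 and 606 CPM with HRAS against 268 and 288 CPM (0.98 ± 0.13, q = 9.92e-05).

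In the repeat MT-CO1 was at 21602 and 14777 CPM with doxorubicin against 11625 and 21881 CPM without, which overlapped (0.12 ± 0.26, q = 0.872). Whether that differs from the first experiment was not tested. It was at 22583 and 19318 CPM in irradiated WI-38 against 12018 and 12332 CPM (0.78 ± 0.26, q = 0.061), and at 35916 and 27341 CPM in exhausted cells against 17051 and 18737 CPM (0.82 ± 0.26, q = 0.0562). Neither pair of groups overlapped, but neither passed the threshold. MT-CO1 made up 32.3% to 47.7% of the mitochondrial protein-gene counts in the first kind of library.

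ATP synthase uses the proton gradient to make ATP, and MT-ATP6 forms part of its proton channel. It was at 63.3 and 77.3 CPM with HRAS against 46.2 and 42.4 CPM (0.67 ± 0.14, q = 0.00167), and at 2595 and 1859 CPM in exhausted WI-38 against 700 and 1051 CPM (1.35 ± 0.26, q = 0.00284). Neither overlapped. MT-ATP6 also rose in IMR-90 (0.34 ± 0.08 after irradiation and 0.28 ± 0.08 at late passage), calls that were each lost without any of 2 libraries. MT-ATP8, which shares bases with it, followed closely with 0.61 ± 0.14, 1.66 ± 0.35, 0.39 ± 0.09 and 0.29 ± 0.09 in the same 4 comparisons, and it fell in HAEC (-0.20 ± 0.07, q = 0.0301), a call lost without any of 3 libraries. Its late-passage call was lost without either of 2 libraries and its call in exhausted WI-38 without control replicate 1.

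**Figure D4:**
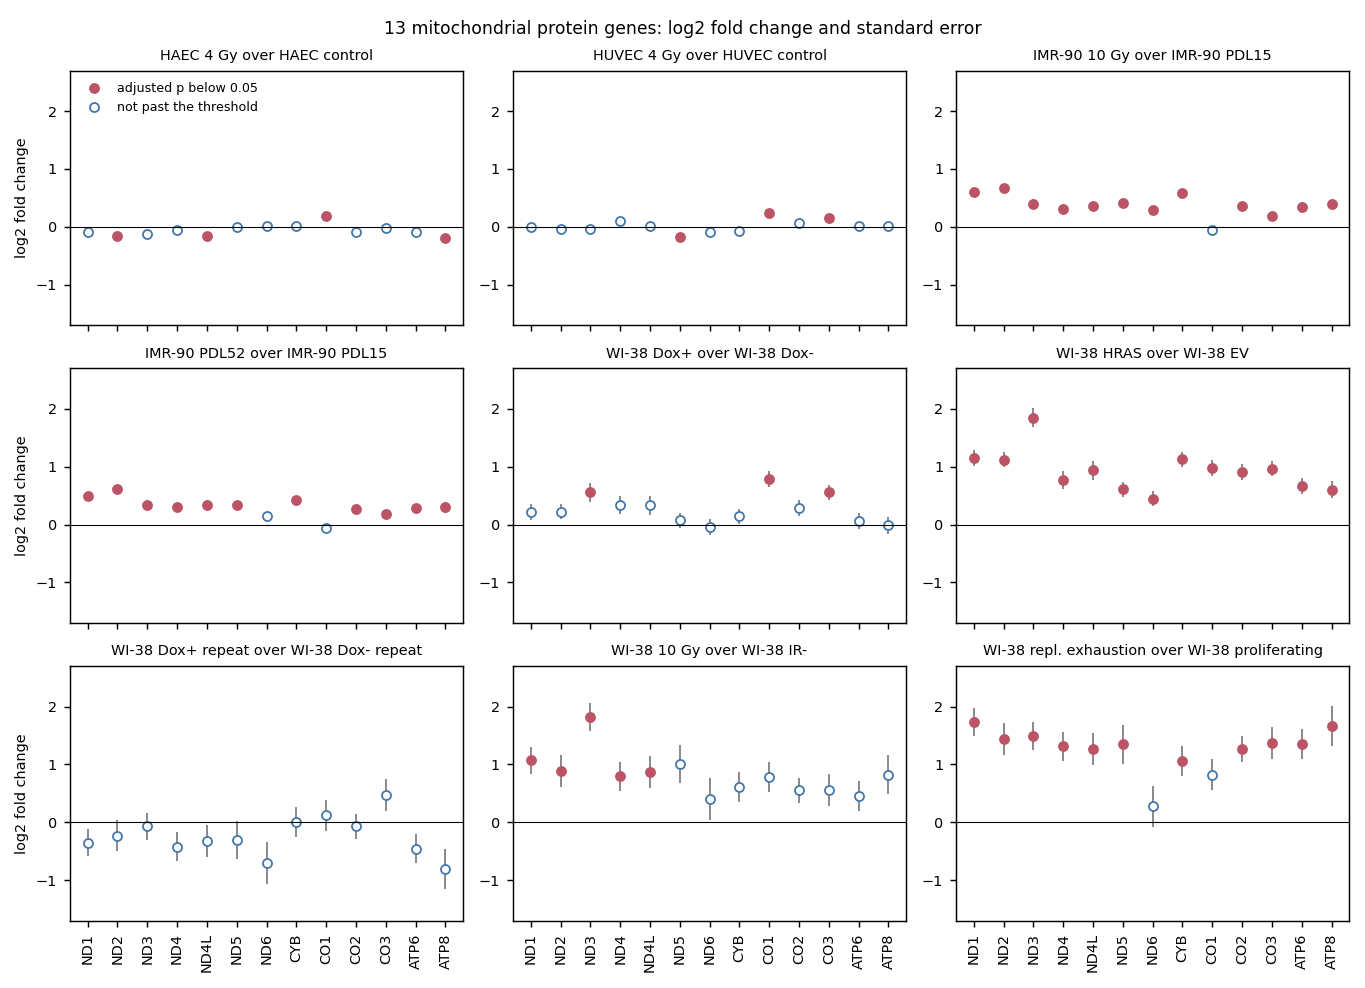
Log2 fold change (y axis, treated over control) with its standard error (bars, hidden where smaller than the point) of the 13 mitochondrial protein genes, by respiratory complex (x axis), 1 panel per comparison; filled points passed q below 0.05 in edgeR. All 13 are filled with HRAS, while in IMR-90 MT-CO1 lies at -0.06 in both panels with 12 and 11 genes filled.

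The 2 ribosomal RNAs, MT-RNR1 of the small and MT-RNR2 of the large mitochondrial ribosomal subunit, moved together and varied widely between replicates. MT-RNR2 was at 726 and 1261 CPM with doxorubicin against 454 and 187 CPM in the first WI-38 experiment (1.63 ± 0.49, q = 0.0278), and MT-RNR1 at 372 and 715 CPM against 238 and 98.0 CPM (1.70 ± 0.49, q = 0.0231). Both calls were lost without control replicate 2 or doxorubicin replicate 2. With HRAS MT-RNR2 was at 826 and 2822 CPM against 1117 and 1184 CPM, so that the treated libraries lay on either side of the controls (0.66 ± 0.48, q = 0.281).

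In HAEC MT-RNR2 fell, at 237, 251 and 134 CPM after irradiation against 274 and 285 CPM (-0.43 ± 0.14, q = 0.0223), and the call held without each library in turn. Its size did not hold as well: the log2 fold change ranged from -0.58 to -0.19 as single libraries were left out. MT-RNR1 was not called in HAEC (-0.41). In late-passage IMR-90 MT-RNR2 was at 320 and 666 CPM against 271 and 251 CPM (0.92 ± 0.31, q = 0.0253). After irradiation it was at 442 and 195 CPM, on either side of the same controls. The late-passage calls of MT-RNR1 and MT-RNR2 were lost without any of 3 libraries. In irradiated WI-38 MT-RNR2 was at 47970 and 89353 CPM against 30518 and 36764 CPM, without overlap and short of the threshold (1.03 ± 0.45, q = 0.142). The protocols deplete ribosomal RNA, and how far that step set these levels was not tested.

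Responses were compared with each other where 1 fit could hold both. Between HUVEC and HAEC after 4 Gy, the response of MT-TP differed by 0.64 ± 0.15 (q = 0.00199) and that of MT-ND5, a proton-pumping subunit, by -0.18 ± 0.05 (q = 0.0113). MT-TA, MT-TN and MT-CO3 differed by 0.16, 0.15 and 0.17. That made 4 members higher and 1 lower in HUVEC minus HAEC, where 8.85% and 9.11% of all genes were. Leaving out any 1 of 9 of the 11 libraries reduced the 5 differences to 2. In IMR-90, MT-TP alone differed between irradiated and late-passage cells, by 0.74 ± 0.11 (q = 0.00088; 5.12% and 5.45% of all genes). The count became 4 without irradiated replicate 1 and 6 without late-passage replicate 1.

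The HRAS response exceeded the doxorubicin response of the first WI-38 set in 12 members (21.6% of all genes were higher and 14% lower). MT-ND3 differed by 1.29 ± 0.23, MT-TE by 1.20 ± 0.28, MT-TP by 1.00 ± 0.26 and MT-CYB by 0.98 ± 0.19. The other 8 were MT-ND1, MT-ND2, MT-ND5, MT-CO2, MT-ATP6, MT-ATP8, MT-TH and MT-TT, at 0.54 to 0.95. None of the 4 clustered light-strand transfer RNAs was among them, and 0 had an unadjusted p below 0.05. That does not show equal responses, and without doxorubicin replicate 2 the count was 6.

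In the second WI-38 set, the radiation response exceeded the doxorubicin response for MT-ND1 (1.42 ± 0.34) and MT-ND3 (1.89 ± 0.33), with 1.39% higher and 0.946% lower among all genes. The exhaustion response exceeded it for 9 members (0.943% and 1.87% of all genes), among them MT-ATP8 (2.47 ± 0.49), MT-ND1 (2.08 ± 0.34), MT-TS1 (1.88 ± 0.45) and MT-ATP6 (1.80 ± 0.36). These counts were unstable: the count of 2 became 24 without irradiated replicate 1, 6 without doxorubicin replicate 1, 5 without its control replicate 2 and 1 without any of the other 5 libraries, and the count of 9 became 5 without doxorubicin replicate 2 and 2 without proliferating replicate 1. Between radiation and exhaustion, edgeR called 0 members, where 6.26% of all genes were called; DESeq2's Wald test also called 0, and 3 members had an unadjusted p below 0.05 in edgeR. Without irradiated replicate 1 the count was 10, and without irradiated replicate 2 it was 1.

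Nuclear genes that serve the mitochondrial genome were counted for comparison. Proteins of the mitochondrial ribosome fell in endothelium and rose in IMR-90 and with HRAS: of 76 genes, 2 rose and 44 fell in HAEC (median -0.15), 57 fell in HUVEC (-0.20), 55 rose and 5 fell in irradiated IMR-90 (0.36), and 42 rose and 7 fell at late passage (0.22). With doxorubicin in the first WI-38 set 26 fell (-0.36), and with HRAS 59 rose and 1 fell (0.67). The medians over all genes, and the shares of all genes called higher and lower, are those given above. In irradiated WI-38 3 rose and 4 fell, in exhausted WI-38 3 rose and 2 fell, and in the doxorubicin repeat 0 were called. Of 20 genes for RNA processing and stability, 1 rose and 12 fell in HAEC, 16 fell in HUVEC and 13 rose in each IMR-90 comparison. With doxorubicin in the first WI-38 set 3 of them fell, and with HRAS 15 rose. In the doxorubicin repeat and in irradiated and exhausted WI-38, 0 of the 20 were called. These lists are not independent evidence of a direction, since they were chosen with earlier results of these data known.

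TFAM, which packages mitochondrial DNA and starts its transcription, fell in HAEC, at 54.2 ± 1.80 CPM (SD, n = 3) after irradiation against 83.5 ± 1.88 CPM (n = 2; -0.62 ± 0.04). It also fell with doxorubicin in the first WI-38 set, at 22.3 ± 1.19 CPM against 39.7 ± 1.17 CPM (n = 2 each; -0.83 ± 0.21), where the light-strand cluster rose. TFAM rose in irradiated IMR-90, at 30.9 ± 0.385 CPM against 22.7 ± 1.25 CPM (0.44 ± 0.07), and with HRAS, at 18.4 ± 4.34 CPM against 9.43 ± 3.20 CPM (0.96 ± 0.22). POLRMT, the mitochondrial RNA polymerase, was at 77.7 ± 7.01 CPM with HRAS against 28.3 ± 4.05 CPM (1.46 ± 0.15, q = 7.04e-06), and it rose by 0.49 ± 0.06 and 0.51 ± 0.06 in irradiated and late-passage IMR-90. ELAC2, which cuts the 3′ end of mitochondrial transfer RNAs, rose in the same 3 comparisons, by 0.95 ± 0.06 and 0.66 ± 0.06 in IMR-90 and 1.17 ± 0.14 with HRAS.

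RRM2B, a p53-induced ribonucleotide reductase subunit that supplies nucleotides for mitochondrial DNA outside S phase, rose in 7 comparisons. It was at 162 ± 3.73 CPM in irradiated IMR-90 against 50.2 ± 0.486 CPM (1.69 ± 0.06), and at 137 ± 2.99 CPM in irradiated HAEC against 93.6 ± 0.440 CPM (0.55 ± 0.03). PPARGC1A, a co-activator of mitochondrial biogenesis, was at 0.176 ± 0.0470 CPM in irradiated and 0.126 ± 0.0744 CPM in late-passage IMR-90 against 14.6 ± 3.70 CPM at level 15 (-6.36 ± 0.25 and -6.82 ± 0.27). With doxorubicin in the first WI-38 set it rose, at 1.93 ± 0.276 CPM against 0.318 ± 0.0666 CPM (2.60 ± 0.30). PPARGC1A also rose in irradiated WI-38, at 2.66 ± 0.143 CPM against 0.845 ± 0.0181 CPM (1.65 ± 0.30, q = 0.00155), and fell in exhausted WI-38, at 1.68 ± 0.527 CPM against 5.23 ± 0.326 CPM (-1.64 ± 0.29, q = 0.00183). Its direction thus differed among comparisons, and several of these levels were below 1 CPM. Its relation to the mitochondrial genes was not tested.

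Other measures differed between the same groups. Protein-coding genes took 57.4% of counts on average in irradiated IMR-90 against 63.2% at level 15, and 54.1% with doxorubicin against 60.4% in the first WI-38 set, without overlap in either. The summed level of the 10 fibroblast markers was 3705 to 3760 CPM in irradiated and 5591 to 5941 CPM in late-passage IMR-90 against 15045 to 15872 CPM at level 15, and 1532 to 1694 CPM with HRAS against 6813 to 8019 CPM with the empty vector. Smooth muscle markers (6 genes) summed to 1879 to 1922 CPM in irradiated and 2034 to 2546 CPM in late-passage IMR-90 against 685 to 712 CPM at level 15, and to 350 to 369 CPM with HRAS against 1526 to 1871 CPM with the empty vector. Epithelial markers (8 genes) summed to 1051 to 1069 CPM in irradiated against 467 to 489 CPM in unirradiated HAEC, and to 72.5 to 76.8 CPM in irradiated IMR-90 against 15.3 to 15.4 CPM at level 15. Endothelial markers summed to 50.3 to 307.8 CPM over the fibroblast groups. Leukocyte markers summed to 4.86 to 62.0 CPM over all groups. The part of these measures in the mitochondrial results was not tested.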

How the data were processed

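For each of the 37 libraries the authors deposited a table of raw counts, whole reads assigned to each Ensembl gene. Bcl2fastq, cutadapt, STAR 2.4, featureCounts and the build hg19 appear in the submitters' processing notes. Settings, annotation release and strand use in counting were not given in the sources used here. Of 57773 Ensembl identifiers, 51996 matched the table of gene names, and 52338 had a symbol once GENCODE release 29 (GRCh38) filled gaps; that release also gave positions and transcript sequences. Libraries were grouped by their labels, and each comparison was tested within its set (HAEC, HUVEC, IMR-90, first or second WI-38 set) with edgeR 4.0.16 in R 4.3.3: TMM scaling, filterByExpr, quasi-likelihood test, adjusted p below 0.05 over all 27519 to 33612 genes tested per set. The standard error is the size of the log2 fold change over the square root of F. The spread among replicate libraries, as the square root of edgeR's common dispersion, was 5.69%, 6.94%, 8.41%, 16.3% and 38.1% in the same order. The last set therefore resolves only large changes. Shares are of unscaled counts. Alternatives were DESeq2 1.42.0 size factors and Wald test, scaling from nuclear genes only, no filter, compared groups only, all libraries of a kind, a replicate term and each library left out; the share without rRNA genes was added after seeing the data. A group reduced to 1 library was assumed to have the spread of the remaining groups. The test was tested on simulated counts. Members, nuclear lists, markers and the rule for named genes were chosen with earlier results of these data known. The rule named all members, TFAM, POLRMT, LRPPRC, PPARGC1A, the nuclear copies, and per nuclear list and comparison up to 2 called genes in each direction with the smallest adjusted p.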

Additional observations from a re-analysis of the deposited data

Results flagged for a closer look

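The response to 4 Gy differed between HUVEC and HAEC in 5 members by a test of the difference itself in edgeR. That is 13.9% of the 36 tested, below the share of all genes called for this difference (8.85% higher and 9.11% lower), and the count was 2 without any 1 of 9 of the 11 libraries. The log2 response of HUVEC minus that of HAEC was 0.16 for MT-TA, 0.15 for MT-TN, 0.17 for MT-CO3, -0.18 for MT-ND5 and 0.64 for MT-TP. MT-TA and MT-TN rose in both cell types, so for them the difference is one of size.

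By TMM-scaled CPM, in some members every irradiated library lay on one side of its controls in IMR-90 and on the other in endothelium. Not all of these were called in endothelium. MT-ND1, MT-ND3, MT-ATP6, MT-TK, MT-TH and MT-TE were not called in HAEC, nor MT-TI and MT-TS2 in HUVEC. The share of all genes that meet this rule was not computed. The doses were 10 Gy in IMR-90 and 4 Gy in endothelium, and these differences were not tested. The directions depend on scaling. Of unscaled counts, the summed share of protein genes was higher in irradiated than in unirradiated HAEC without overlap (ratio 1.08). In irradiated IMR-90 that share overlapped with level 15 (ratio 0.971). Among messengers, the log2 fold change of irradiated IMR-90 minus that of irradiated HAEC was 0.68 for MT-ND1, 0.82 for MT-ND2, 0.51 for MT-ND3, 0.53 for MT-ND4L, 0.59 for MT-ATP8 and 0.43 for MT-ATP6. Among transfer RNAs it was 1.62 for MT-TM (methionine), 1.21 for MT-TK (lysine), 0.75 for MT-TG (glycine), 0.93 for MT-TH, 1.06 for MT-TS2, 1.09 for MT-TL2, 0.73 for MT-TE and 2.15 for MT-TP. Set against irradiated HUVEC, it was 1.32 for MT-TI (isoleucine), 1.03 for MT-TS2, 1.11 for MT-TL2 and 0.58 for MT-ND5. MT-TS2 and MT-TL2 stood apart in both. These 2 genes are neighbours, and their counts may hold the same reads. No group has 4 or more libraries, so single libraries could not be checked against the rest of their group.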

How the results depend on the processing

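Counts of members called depended on the processing in several comparisons, and the cause was not tested. With no filter on low counts, lower calls in HUVEC went to 6, higher and lower calls of the doxorubicin repeat to 7 and 5, higher calls to 32 in irradiated and 31 in exhausted WI-38, and called differences to 2 for HUVEC minus HAEC, 5 for irradiated minus late-passage IMR-90, 28 for radiation minus doxorubicin, 20 for exhaustion minus doxorubicin and 5 for radiation minus exhaustion. DESeq2's Wald test gave 4 lower calls in HAEC, 3 higher in the repeat and 4 differences for radiation minus doxorubicin, where DESeq2's size factors gave 1. A fit of the compared groups alone gave 20 higher calls with doxorubicin and 3 in the repeat; a fit of all libraries of the first kind gave 22 with doxorubicin and 1 lower call each in HAEC and HUVEC, and for the second kind it is the reported fit. Leaving out single libraries gave 3 to 8 lower calls in HAEC, 1 to 5 in HUVEC, 0 to 1 at late passage and 0 to 1 in the repeat. Higher calls were 6 to 11 with doxorubicin, 0 to 2 in the repeat, 7 to 31 in irradiated and 11 to 21 in exhausted WI-38, against 22 to 26 in irradiated and 20 to 23 in late-passage IMR-90 and 26 to 33 with HRAS. Called differences were 2 to 5 for HUVEC minus HAEC, 1 to 6 for irradiated minus late-passage IMR-90, 6 to 16 for HRAS minus doxorubicin, 1 to 24 for radiation minus doxorubicin, 2 to 10 for exhaustion minus doxorubicin and 0 to 10 for radiation minus exhaustion. In irradiated WI-38 without replicate 2, MT-TH, MT-TS2 and MT-TL2 turned to -0.51, -0.67 and -0.083; their highest values, without replicate 1, were 3.42, 3.31 and 2.91. The ratio of mitochondrial shares in HAEC, 1.02, was 1.12 without the rRNA genes, an alternative chosen after seeing the data. Scaling from nuclear genes alone changed no call. Same replicate numbers did not pair samples by the labels, although deviations of same-numbered libraries correlated at 0.72 for HRAS and 0.50 for irradiated WI-38; elsewhere the correlations were -0.33 to 0.11. With a replicate block, 5 members rose and 7 fell in HAEC, 6 rose and 2 fell in HUVEC, and 28, 29, 12, 31, 1, 18 and 18 rose in the other comparisons in the order used above.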

Other observations

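Other nuclear lists were counted beside the mitochondrial genes. They too were chosen with earlier results known. Among all genes, 19.7% rose and 19.9% fell in HAEC, and 18.6% and 20.1% in HUVEC. In irradiated IMR-90 the shares were 26.6% and 22.5%, and at late passage 26.6% and 23.5%. They were 13.6% and 13.2% with doxorubicin and 27.1% and 18.9% with HRAS, and 5.80% rose in exhausted WI-38. Several counts below are near those shares, such as those of the enzymes at late passage. Of 28 mitochondrial tRNA-modifying and charging enzymes, 13 fell in HAEC, 17 fell in HUVEC, 11 rose and 4 fell in irradiated IMR-90, 9 rose and 6 fell at late passage, 1 rose and 13 fell with doxorubicin in the first WI-38 set, and 11 rose and 1 fell with HRAS. Of 12 genes for replication of mitochondrial DNA, 3 rose and 6 fell in HAEC, 2 rose and 6 fell in HUVEC, 8 rose and 3 fell in irradiated IMR-90, 6 rose and 3 fell at late passage, 2 rose and 4 fell with doxorubicin and 6 rose and 1 fell with HRAS. Of 9 genes for mitochondrial transcription, 1 rose and 5 fell in HAEC, 1 rose and 6 fell in HUVEC, 5 rose and 1 fell in irradiated IMR-90, 4 rose and 1 fell at late passage, 1 fell with doxorubicin and 6 rose with HRAS. Of 6 regulators of biogenesis, 2 of the 5 tested fell in HAEC and 4 of 5 in HUVEC, 2 rose and 2 fell in irradiated IMR-90, and 3 rose with HRAS. In the second kind of library, 2 of the enzymes fell in the repeat, 3 in irradiated and 3 in exhausted WI-38. Among replication genes, 1 fell in the repeat, 2 rose in irradiated and 1 fell in exhausted WI-38. Among transcription genes, 1 rose in the repeat and 1 in irradiated WI-38. Among regulators, 1 rose in irradiated and 1 fell in exhausted WI-38. Of 7 nuclear copies of mitochondrial genes, 4 rose with HRAS and 6 in exhausted WI-38. Their counts are uncertain where reads are shared with the mitochondrial genes.

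LRPPRC, which stabilises mitochondrial messenger RNAs, rose with HRAS, at 101 ± 11.3 CPM against 46.7 ± 8.53 CPM with the empty vector (SD, n = 2 each; 1.12 on the log2 scale), and fell in HAEC and HUVEC (-0.20 and -0.27). TRMT10C, a subunit of mitochondrial RNase P, rose with HRAS, at 23 ± 6.66 CPM against 5.75 ± 2.11 CPM (2.00). PNPT1, which degrades mitochondrial RNA, fell in HUVEC, at 45.9 ± 1.00 CPM against 68.0 ± 3.00 CPM (n = 3 each; -0.57), and with doxorubicin in the first WI-38 set, at 17.4 ± 1.39 CPM against 29.8 ± 0.670 CPM (n = 2 each; -0.78).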
